A study of Mus musculus with 24 samples.

Results

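Cxcl1, Cxcl2, Il1a, Csf1 and Ackr3 are 5 genes for secreted signals, and for a receptor of such signals, that an epithelial cell can use to call in or hold back immune cells. They were taken by gene name from the 12224 rows of the table, and all 5 had a row and passed the filter on low values, as 11557 rows did. Il1a passed it only through the agonist-treated WT libraries, so in contrasts without these its values are given with no test, and counts there cover the other 4. They were picked because of how strongly they responded to a GPR39 agonist in wild-type (WT) cells. The agonist effect in WT cells, and any contrast holding the agonist-treated WT libraries, is therefore given for them as a description with no test.

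Transcripts with a poly(A) tail were sequenced from mpkCCD cells, a mouse epithelial line of the renal cortical collecting duct, giving 24 libraries in 4 groups with 6 each. WT cells and Gpr39 knockout (KO) cells were polarized for 9 days on permeable inserts in medium lacking dDAVP, a vasopressin analogue, and then held for 24 h in a simple medium. For 2 h they were then given, on the basolateral side, either 1 µM cpd1324, the agonist, or 0.1% DMSO, the vehicle. No DMSO content is given for the agonist groups. All 4 groups, the vehicle groups included, also received 10 µM ZnCl2, and zinc itself activates GPR39, a G protein-coupled receptor. The labels do not say how many clones the KO cells represent, which part of Gpr39 was edited, or whether the 6 libraries of a group came from separate cultures. A difference between KO and WT cells therefore cannot be told apart from one between these 2 cell populations.

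CXCL1 and CXCL2 are small secreted chemokines that attract neutrophils through the receptor CXCR2. Interleukin-1 alpha, the product of Il1a, is made as a precursor that is active without cleavage, acts as an alarm signal when cells are damaged, and binds the receptor encoded by Il1r1. CSF1 is the growth factor of macrophages and acts through CSF1R, and renal tubule cells are a known source of it after injury. ACKR3 is an atypical receptor that binds CXCL12 and CXCL11, couples to arrestins rather than G proteins, and clears its ligands from the surroundings.

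Levels are given in scaled units, which are the deposited length-divided signals times 1 constant chosen so that a library holds 1000000 on average. A fold change is the difference between 2 groups in log2(level + 0.5). The libraries held 29.8 to 51.9 M recovered reads (M, 1000000). The sum of all values was 1.18 times the WT vehicle sum in WT cells with agonist, 0.992 times in KO cells under vehicle and 0.968 times in KO cells with agonist. Under vehicle, Gpr39 itself had a level of 21.6 ± 1.61 scaled units in WT cells and of 9.37 ± 0.645 in KO cells (SD, n = 6 each). Of 18 principal cell markers 15 had a row, while Aqp4, Gata3 and Krt8 are not analysed here. Aqp2, the vasopressin-regulated water channel, ranged from 9.16 scaled units in WT cells with agonist to 107 in KO cells under vehicle. Of 19 leukocyte markers only Cd68, Csf1r and Cd14 had a row, with a summed level of 107 to 152 scaled units over the 24 libraries. The defining leukocyte gene Ptprc had no row. The replicates KO_vehicle 6 and KO_agonist 2 stood apart from their groups on the first principal component, so the members' results on KO cells are also given without them. In WT cells the scaling matters for small changes. Once library sums were set equal, the median of all rows with agonist went from −0.01 to −0.24, and 12.4% of rows were called higher and 60.1% lower instead of 28.6% each.

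The first 250 bases upstream of each start site are shown because Cxcl1 and Cxcl2 responded together and lie side by side on chromosome 5. They are taken from RefSeq on GRCm38.p6, on the strand of the gene, and run 5′ to 3′ up to the base before the start. The coordinates are chr5:90890995-90891244 for Cxcl1 and chr5:90903649-90903898 for Cxcl2, both on the plus strand. They are chr2:129309973-129310222 for Il1a and chr3:107760470-107760719 for Csf1, both on the minus strand, and chr1:90203730-90203979 for Ackr3, on the plus strand. Capitals mark matches, searched on both strands, to 3 motifs. The first is GGGNNNTTCC, a short form of the NF-kB (kappaB) motif. The next is TGANTCA, the motif of AP-1. The last is ATAAAA, a word like the TATA box, whose matches here all lie on the strand of the gene. The letters were chosen after the sequences had been seen.
Cxcl1: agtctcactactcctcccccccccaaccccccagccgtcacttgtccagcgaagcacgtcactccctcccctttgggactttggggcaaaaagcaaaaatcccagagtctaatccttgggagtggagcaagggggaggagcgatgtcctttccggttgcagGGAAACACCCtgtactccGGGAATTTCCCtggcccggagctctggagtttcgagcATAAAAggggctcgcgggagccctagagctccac
Cxcl2: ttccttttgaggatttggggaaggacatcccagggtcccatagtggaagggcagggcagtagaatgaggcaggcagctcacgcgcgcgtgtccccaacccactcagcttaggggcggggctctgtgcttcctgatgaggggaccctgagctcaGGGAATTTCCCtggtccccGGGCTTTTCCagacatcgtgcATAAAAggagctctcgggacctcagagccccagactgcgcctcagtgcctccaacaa
Il1a: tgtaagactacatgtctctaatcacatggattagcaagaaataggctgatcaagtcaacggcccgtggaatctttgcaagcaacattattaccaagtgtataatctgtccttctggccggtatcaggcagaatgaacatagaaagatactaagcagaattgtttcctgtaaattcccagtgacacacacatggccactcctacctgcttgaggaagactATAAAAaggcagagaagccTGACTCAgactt
Csf1: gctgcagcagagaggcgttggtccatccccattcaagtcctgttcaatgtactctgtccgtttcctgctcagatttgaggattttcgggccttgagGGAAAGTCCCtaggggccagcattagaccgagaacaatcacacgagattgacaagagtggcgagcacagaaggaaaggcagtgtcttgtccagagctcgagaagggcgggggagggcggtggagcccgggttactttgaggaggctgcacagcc
Ackr3: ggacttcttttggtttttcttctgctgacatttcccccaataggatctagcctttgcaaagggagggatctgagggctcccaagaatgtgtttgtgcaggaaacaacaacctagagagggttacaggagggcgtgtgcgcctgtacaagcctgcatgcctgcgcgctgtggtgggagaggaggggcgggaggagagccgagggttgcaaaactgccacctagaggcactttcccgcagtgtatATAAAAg

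In Cxcl1 the kappaB letters matched at 2 separate places, starting 89 and 71 bases before the start, and in Cxcl2 at 2 places starting 97 and 78 bases before it. The longest run that the 2 windows share exactly has 14 bases, GGGAATTTCCCTGG, and begins 71 bases before the start of Cxcl1 and 97 bases before that of Cxcl2. Within this run the letters match on both strands, and the overlapping matches were counted once. Csf1 had 1 match, 154 bases upstream, and the windows of Il1a and Ackr3 had 0. Among 8769 promoters of tested genes, read over 300 bases that include the 50 after the start, 6.42% held the kappaB letters. The AP-1 letters, held by 4.90%, were found in Il1a and in no other of the 5, 12 bases before the start. ATAAAA, held by 9.01%, was found in 4 of the 5 windows, all but that of Csf1. Neither a CRE (TGACGTCA, held by 3.39%) nor a CArG box (1.29%), the site of SRF, was found in any of the 5. These are matches of letters, and binding was not measured.

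With agonist the 2 neutrophil chemokines rose from below most of the rows to near the top. Cxcl1, on chromosome 5, ran from 5.65 to 11.9 scaled units in WT cells under vehicle (median 8.62) and from 270.2 to 378 with agonist (median 304). The lowest agonist library was far above the highest vehicle library, so the groups did not overlap. The means were 8.82 ± 2.23 and 313 ± 37.5 (SD, n = 6), a ratio of 35.5, resting on 553 and 16283 reads. The log2 fold change was 5.10 ± 0.15 (SE), the 4th highest of the 11557 rows tested. The mean level of Cxcl1 exceeded that of 24.8% of all rows under vehicle and of 95.3% with agonist.

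Cxcl2, the neighbouring chemokine gene, moved further. Its level was 2.04 to 5.61 scaled units under vehicle (median 3.35) and 203 to 322 with agonist (median 275), again without overlap. Means of 3.51 ± 1.39 and 267 ± 40.5 (SD, n = 6) gave a ratio of 76.2, and the log2 fold change of 6.12 ± 0.17 was the highest of all rows. That rank depends on the pseudocount. With 0.1 in place of 0.5 the fold change was 6.29, below the 6.45 of Il1a. Per length, Cxcl1 transcripts were 2.65 ± 0.530 times as abundant as Cxcl2 transcripts under vehicle and 1.18 ± 0.0832 times with agonist. Cxcl1 was the more abundant in all 24 libraries, since the lowest ratio in any group was 1.08. The longest stretch shared exactly by the 2 transcripts is 23 bases in GENCODE M21, and 0 of 904 stretches of 50 bases in the Cxcl1 transcript occur in that of Cxcl2.

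Il1a, on chromosome 2, went from almost no reads to a middling level. Its 6 vehicle libraries held 1 to 5 reads each, 20 in all, or 0.0461 to 0.231 scaled units (median 0.195). The agonist libraries held 258 to 516 reads, or 16.8 to 28.7 scaled units (median 21.5). The groups did not overlap. The ratio of summed reads, after the library factors, was 134 with an exact 95% interval of 86.3 to 219 that covers counting error only. The log2 fold change was 5.07 ± 0.14, the 5th highest, and at so low a baseline it depends on the pseudocount. Even with agonist, Il1a exceeded only 42.9% of rows.

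Csf1, on chromosome 3, was already well expressed and rose less. It stood at 32.7 to 42.2 scaled units under vehicle (median 36.7) and at 95.4 to 161 with agonist (median 130). The agonist libraries were all above the vehicle libraries, with WT_agonist 4 the lowest and WT_agonist 5 the highest. The means were 37.0 ± 3.66 and 130 ± 21.1 (SD, n = 6), a ratio of 3.52, and the log2 fold change was 1.79 ± 0.11, the 150th highest. Once library sums were set equal it was 1.55.

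Ackr3, the scavenger receptor gene on chromosome 1, was the member that went down. It stood at 22.7 to 36.1 scaled units in WT cells under vehicle (median 28.4) and at 3.74 to 8.54 with agonist (median 6.47), without overlap. The mean dropped from 29.2 ± 4.79 to 6.41 ± 1.71 (SD, n = 6), to 0.219 times the vehicle level. The log2 fold change was −2.13 ± 0.15, the 3rd lowest of all rows. In bulk RNA, fewer cells with a transcript and less of it per cell cannot be told apart.

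So 4 members were higher and 1 was lower with agonist in WT cells, and the libraries did not overlap for any of the 5. Of all rows 57.2% passed the test in this contrast and 37.5% had no overlap. The members were picked on this contrast, and nothing is read from their count.

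**Figure D1:**
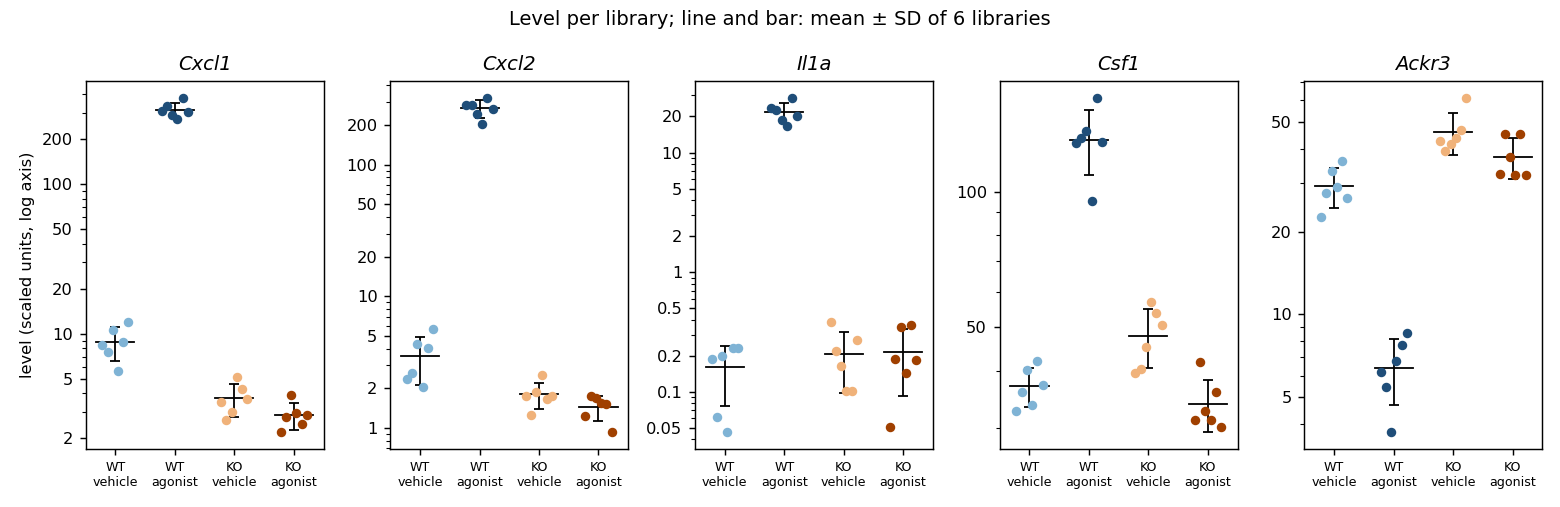
Level of each gene in each of the 24 libraries in scaled units on log axes, with a line at the mean and a bar of ± 1 SD over 6 libraries. WT agonist libraries of Cxcl1 lie between 270.2 and 378 and those of Ackr3 between 3.74 and 8.54, clear of the WT vehicle libraries, while the KO groups lie close to each other.

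The same agonist in KO cells asks what it does without an intact Gpr39, and the choice of the members did not use that contrast. Of the 4 members tested 1 passed, Csf1, which fell. Of all rows 9.3% passed, 4.66% as higher and 4.64% as lower. All 4 overlapped between the 2 KO groups, against 4.53% of all rows without overlap. Csf1 was at 39.5 to 56.9 scaled units in KO cells under vehicle (median 48.0) and at 30.1 to 41.9 with agonist (median 31.9). The groups overlapped through KO_agonist 2, at 41.9, which was above KO_vehicle 1 and 2, at 39.5 and 40.5. The other 5 agonist libraries lay below all 6 vehicle libraries. The means were 47.8 ± 7.16 and 33.8 ± 4.47 (SD, n = 6), and the log2 fold change was −0.49 ± 0.11 (95% interval −0.71 to −0.27; adjusted p = 0.0112 in limma). Over the other settings, leaving out single libraries aside, the adjusted p was 0.00369 to 0.0144, and leaving out each library in turn gave 0.00301 to 0.0363. KO_vehicle 1 and 2, the lowest vehicle libraries for Csf1, were also the most deeply sequenced, at 51.9 and 49.7 M reads against 33.8 to 37.0 M for the other 4. The part of depth in the result was not tested.

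The others did not pass in KO cells. Cxcl1 was at 2.64 to 5.13 scaled units under vehicle (median 3.58) and at 2.21 to 3.91 with agonist (median 2.83), with a log2 fold change of −0.31 ± 0.15 (95% interval −0.61 to −0.00; limma adjusted p = 0.173). Cxcl2 was at 1.25 to 2.52 and 0.934 to 1.74 scaled units (medians 1.75 and 1.54; −0.24 ± 0.17, interval −0.60 to 0.12, limma adjusted p = 0.384). The 2 chemokines rested on 21 to 52 and 9 to 22 reads per KO library, so a small change could not be resolved. The 95% intervals nonetheless end at −0.00 for Cxcl1 and at 0.12 for Cxcl2, against fold changes above 5 in WT cells.

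Il1a had 2 to 11 reads per KO library under vehicle and 1 to 7 with agonist, 29 and 25 in all. Its log2 fold change was 0.01 ± 0.14, with no test read from it at these levels. The ratio of summed reads was 0.956 with an exact 95% interval of 0.537 to 1.69. Ackr3 was at 39.2 to 61.4 scaled units under vehicle (median 43.3) and at 32.2 to 45.5 with agonist (median 35.0), with overlap. Its log2 fold change of −0.29 ± 0.15 had a 95% interval of −0.60 to 0.01 and did not pass (limma adjusted p = 0.199). Agonist and vehicle libraries of Ackr3 were apart in WT cells and overlapped in KO cells.

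Without KO_vehicle 6 and KO_agonist 2, a choice made after seeing the data, the fold change of Csf1 was −0.53 (limma adjusted p = 0.00369). Those of Cxcl1, Cxcl2 and Ackr3 were −0.30, −0.29 and −0.26, with limma adjusted p of 0.193 to 0.299. The differences between the WT and the KO effect, given as a description, were 5.40 ± 0.21 for Cxcl1, 6.36 ± 0.25 for Cxcl2, 5.06 ± 0.20 for Il1a, 2.28 ± 0.15 for Csf1 and −1.84 ± 0.21 for Ackr3. For Csf1 the 2 effects had opposite signs.

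Under vehicle, which here still holds zinc, KO cells already differed from WT cells in all 4 members tested. Of all rows 47.8% passed this test, 23.9% in each direction, so a call is common. The WT vehicle libraries used here also enter the contrast behind the choice of the members. Cxcl1 was lower in KO cells, at 3.70 ± 0.898 scaled units (SD, n = 6), 0.419 times the WT vehicle level. The highest KO library, at 5.13, was below the lowest WT library, at 5.65. The log2 fold change was −1.14 ± 0.15 (limma adjusted p = 5.87e-07). Cxcl2 was lower as well, at 1.80 ± 0.413 scaled units or 0.512 times the WT level (−0.75 ± 0.17, limma adjusted p = 0.00095). Its groups overlapped, since WT_vehicle 1 and WT_vehicle 4, at 2.36 and 2.04, fell within the KO range.

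Csf1 and Ackr3 were higher in KO cells under vehicle. Ackr3 reached 46.0 ± 7.96 scaled units (SD, n = 6), 1.57 times the WT level, and its lowest KO library, at 39.2, was above the highest WT library, at 36.1. The log2 fold change was 0.64 ± 0.15 (limma adjusted p = 0.000869). Csf1 was 1.29 times the WT level (0.36 ± 0.11, limma adjusted p = 0.00741), with overlap. No overlap was seen for 2 of the 4, Cxcl1 and Ackr3, against 27.3% of all rows. Without KO_vehicle 6 and KO_agonist 2 the 4 fold changes were −1.14, −0.75, 0.34 and 0.56 for Cxcl1, Cxcl2, Csf1 and Ackr3 (limma adjusted p = 3.04e-06, 0.00204, 0.0104 and 0.00262). Il1a had 20 reads in the WT and 29 in the KO libraries, a ratio of 1.35 with an exact 95% interval of 0.735 to 2.51 for counting error only.

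The resulting order of levels differed by gene. For Cxcl1 it ran from KO with agonist through KO under vehicle and WT under vehicle to WT with agonist, and only the 2 KO groups overlapped as neighbours. Cxcl2 had the same order, with overlap also between KO and WT cells under vehicle. For Il1a the 3 groups other than WT with agonist overlapped. For Csf1 the order was KO with agonist, WT under vehicle, KO under vehicle and WT with agonist, with overlap between each of the first 3 neighbours. For Ackr3 it was WT with agonist, WT under vehicle, KO with agonist and KO under vehicle, and neighbours overlapped in the last 3 groups. Set against WT cells with agonist, KO cells with agonist differed by −6.55 for Cxcl1, −7.11 for Cxcl2, −4.96 for Il1a, −1.92 for Csf1 and 2.48 for Ackr3, which is again a description.

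**Figure D2:**
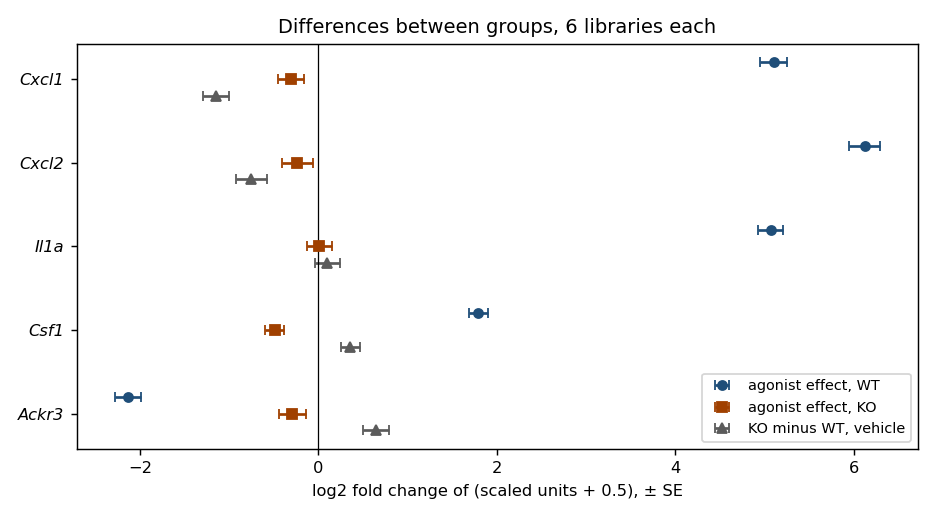
Log2 fold change of each gene with its SE (bars) for the agonist effect in WT cells, the agonist effect in KO cells and KO minus WT cells under vehicle, 6 libraries per group. The WT effects, from −2.13 to 6.12, lie far from 0, while the KO effects lie between −0.49 and 0.01.

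In WT cells Cxcl1 and Cxcl2 varied together between libraries of the same group. After removing the group means, the 12 WT libraries gave a Pearson r of 0.912 for Cxcl1 and Cxcl2 (Spearman rho 0.909; adjusted permutation p = 0.00185 for r over the 10 pairs). The r was 0.911 within the vehicle group, 0.917 within the agonist group, and 0.831 without the 2 libraries farthest from the median of Cxcl1. WT_agonist 5 was the highest and WT_agonist 4 the lowest of its group for Cxcl1, Cxcl2, Il1a and Csf1 alike. In WT cells under vehicle Il1a rests on 1 to 5 reads per library, so its pairs are given as a description with no test. Besides Cxcl1 with Cxcl2, the pair Cxcl2 with Csf1 passed (r 0.655, rho 0.762, adjusted permutation p = 0.0137). Cxcl1 with Csf1 had an r of 0.552 and a rho of 0.678 (permutation p = 0.026 unadjusted, 0.0433 adjusted). The adjustment ran over all 10 pairs, and the pairs with Il1a, not read as tests, lower the adjusted p of the others. Cxcl1 with Csf1 is therefore read as no call. For Il1a, r and rho were 0.775 and 0.890 with Cxcl1, 0.729 and 0.851 with Cxcl2, and 0.735 and 0.729 with Csf1. Within the agonist group, where Il1a had 258 to 516 reads, its r with these genes was 0.8199 to 0.9586. Without the 2 farthest libraries r was 0.819 for Cxcl2 with Csf1 and 0.722 for Cxcl1 with Csf1. It was 0.835, 0.713 and 0.544 for Il1a with Cxcl1, Cxcl2 and Csf1. The 4 pairs with Ackr3 had an r of 0.148 to 0.265, and none of those without Il1a passed. Csf1 with Ackr3 differed between the groups, with an r of 0.868 within the vehicle group and of −0.015 within the agonist group. Over all 24 libraries, the KO libraries included, r was lower for the 6 pairs among Cxcl1, Cxcl2, Il1a and Csf1. It was 0.780 for Cxcl1 with Cxcl2, 0.634 for Cxcl2 with Csf1, 0.519 for Cxcl1 with Csf1, 0.455 and 0.403 for Il1a with Cxcl2 and Cxcl1, and 0.251 for Il1a with Csf1. The 4 pairs with Ackr3 ran from an r of 0.156 with Cxcl1 to 0.396 with Csf1 over the 24 libraries. In the KO libraries Il1a rests on 1 to 11 reads.

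The libraries' totals moved with 4 of these genes. The deviation of Cxcl1, Cxcl2, Il1a and Csf1 had an r of 0.743, 0.773, 0.851 and 0.806 with the deviation of the library's summed value, and that of Ackr3 an r of 0.198. Once library sums were set equal, Cxcl1 with Csf1 had an r of 0.395 (adjusted permutation p = 0.172). Cxcl1 with Cxcl2 kept an r of 0.889 (adjusted permutation p = 0.00695). Cxcl2 with Csf1 had an r of 0.5446 (permutation p = 0.0195 unadjusted, 0.04875 adjusted). The pairs with Il1a again enter that adjustment, so Cxcl2 with Csf1 is read as no call here. For Il1a, again with no test, r was 0.7502, 0.7082 and 0.619 with Cxcl1, Cxcl2 and Csf1.

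**Figure D3:**
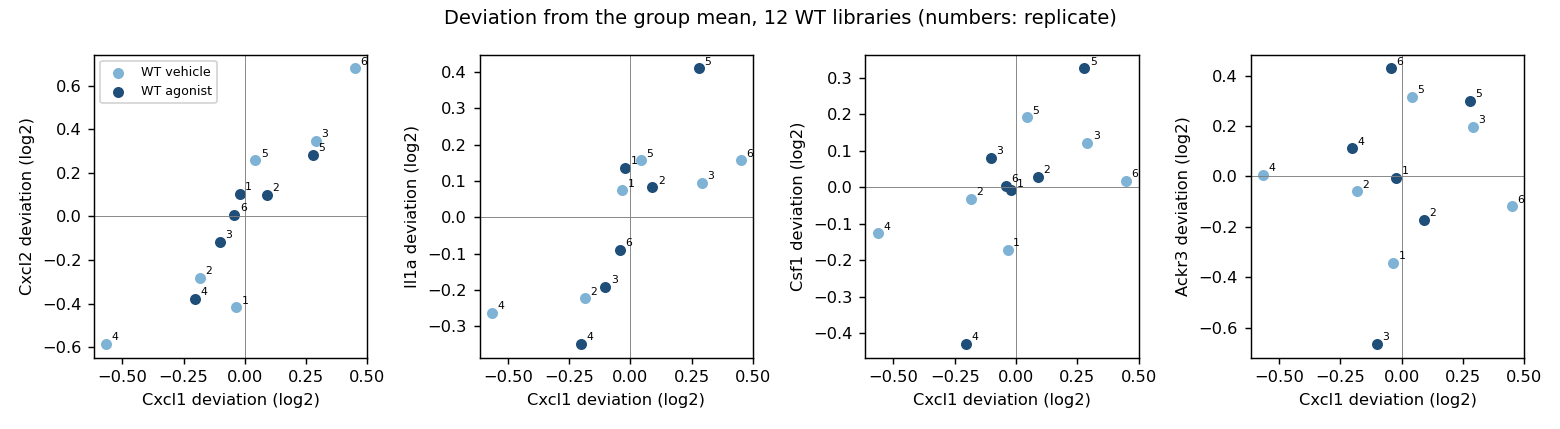
Deviation from the group mean on the log2 scale of Cxcl1 (x axis) against Cxcl2, Il1a, Csf1 and Ackr3 (y axes) in the 12 WT libraries, with replicate numbers beside the points. Cxcl2 follows Cxcl1 (r 0.912) in both groups, and Ackr3 does not (r 0.148).

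Over all 24 libraries, genes could be ranked by how closely their pattern matched that of a member, and these correlations mostly reflect the gap between WT cells with agonist and the rest. Nearest to Cxcl2 was Zc3h12a (r 0.998), which encodes the ribonuclease Regnase-1 that degrades cytokine transcripts, before Pmaip1, Areg, Fosb and Adamts1. Among the nearest to Cxcl1 were Adm, Ets2, Areg and Gcnt2 (r 0.993 to 0.994). Serpinb2, Actb, Tnfaip3, Trim16 and Lif were nearest to Il1a. Csf1 was closest to Herpud1 (r 0.984), a gene of the endoplasmic reticulum stress response, then Eif5, Atf4, Myc and Ceacam1. Ackr3 was closest to Pdcd4 (r 0.987), an inhibitor of translation, then Ypel2, Stat5a, Spata13 and Zfp937. With the group means removed the leading genes were Lif for Cxcl1 (r 0.810), Cbr2 for Cxcl2 (0.902), Olfm2 for Il1a (0.719), Hmox1 for Csf1 (0.824) and Oxr1 for Ackr3 (0.926).

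Members themselves aside, the nearest tested genes on the chromosome changed less than the member beside them. In the gene order of RefSeq on GRCm38.p6, Cxcl1 and Cxcl2 are neighbours, flanked by Cxcl15 and Mthfd2l. In WT cells with agonist Cxcl15 had a log2 fold change of −0.36 ± 0.20 (limma adjusted p = 0.129) and Mthfd2l one of 0.11 ± 0.05 (adjusted p = 0.0894). With library sums set equal both were called lower (−0.54 and −0.13, adjusted p = 0.0206 and 0.0400), and so was Gstm5 beside Csf1 (−0.32, adjusted p = 0.000623). Beside Il1a, Slc20a1, a phosphate transporter gene, rose by 1.42 ± 0.07 (limma adjusted p = 6.5e-15), or by 1.18 with library sums set equal. Ckap2l rose by 0.40 ± 0.14 (limma adjusted p = 0.0167), or by 0.16 with library sums set equal (adjusted p = 0.321), while Il1b is not analysed here. Beside Csf1, Ahcyl1 was at 0.18 ± 0.03 (adjusted p = 1.72e-05), which became −0.058 with library sums set equal (adjusted p = 0.195). Gstm5 was at −0.08 ± 0.08 and did not pass. Beside Ackr3, Cops8, a subunit of the COP9 signalosome, rose by 0.40 ± 0.06 (limma adjusted p = 3.02e-06), the opposite direction. With library sums set equal the rise of Cops8 was 0.16 (limma adjusted p = 0.00568).

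Transcripts of many cytokines carry AUUUA words in the 3′ untranslated region, which are bound by proteins that hasten or delay their decay. Windows of 30 bases with the most such words are shown for the 2 chemokines, as DNA with each word in capitals, from the longest 3′ region in GENCODE M21.
Cxcl1: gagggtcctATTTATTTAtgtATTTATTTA
Cxcl2: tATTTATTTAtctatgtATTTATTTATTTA
The 592 bases of Cxcl1 held 7 words, 11.8 per kb, more than in 99.5% of genes with such a region. The 1494 bases of Cxcl2 held 11, 7.36 per kb, more than in 97.8%. That region is longer than the 789 bases deposited as the gene length of Cxcl2 and than the 1109 bases of the transcript compared with Cxcl1 above. Which of its words lie in the RNA counted here is therefore not known. Il1a held 3 in 1101 bases (2.73 per kb), Csf1 4 in 2111 (1.89) and Ackr3 3 in 1842 (1.63), nearer to the median gene at 1.32 per kb. The word count was taken from sequence alone and no decay was measured.

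The rest of each pathway was followed with lists chosen with earlier results of these data known, leaving out the 5 members. Like Il1a, 5 genes of these lists (Ccl20, Il1rl1, Tnf, Il23a and Il17c) passed the filter only through the agonist-treated WT libraries and are left out of the counts on KO cells. A high level in those libraries let them in, so their WT effects are given with no test. Counts and medians in WT cells that hold them are a description. Of the other 36 chemokine ligands 12 were tested. In WT cells with agonist 4 rose, Ccl20 among them, and 2 fell, beside 28.6% of all rows in each direction (list median 0.08, all rows −0.01). With library sums set equal 4 rose and 4 fell, beside 12.4% and 60.1% of all rows. Ppbp, a neutrophil-attracting chemokine of chromosome 5 like Cxcl1 and Cxcl2, rose from 5.31 ± 0.694 to 64.3 ± 12.2 scaled units (3.47 ± 0.12, limma adjusted p = 6.34e-18). Cxcl16, a membrane-bound chemokine, rose from 12.2 ± 0.821 to 41.9 ± 4.41 (1.73 ± 0.07, adjusted p = 4.72e-17). Ccl20, which attracts cells with CCR6, rose from 0.760 ± 0.193 to 7.00 ± 2.19 (2.54 ± 0.18, with no test). The interferon-induced Cxcl10 rose by 0.74 ± 0.14 (adjusted p = 4.99e-05). Cxcl5 fell (−0.64 ± 0.22, adjusted p = 0.0142), and so did Ccl5 (−0.60 ± 0.22, adjusted p = 0.0245). Ccl5 lost its call without WT_vehicle 5 or 6 or WT_agonist 2 or 3 (adjusted p = 0.0543, 0.0553, 0.0580 and 0.0600). The interaction, called for 41.1% of all rows, was called for 4 of the 12 ligands, Ccl20 included, all with the higher effect in WT cells, as for 21.5% of all rows. For Ccl20 that call is a description as well.

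In KO cells with agonist, where 4.66% of all rows were called higher and 4.64% lower, 0 of 11 ligands rose (list median −0.10, all rows −0.01). Ccl5 fell (−0.75 ± 0.22, limma adjusted p = 0.0380). That call was lost on leaving out 8 of the 12 libraries singly, with an adjusted p of up to 0.0927, and without KO_vehicle 6 and KO_agonist 2 (adjusted p = 0.0591). Under vehicle, where 23.9% of all rows were called in each direction, 4 of the 11 were higher in KO than in WT cells. The 1 that was lower was Mif (−0.40 ± 0.15, adjusted p = 0.0281). The higher ones were Ppbp (0.92 ± 0.12, adjusted p = 8.22e-07), Ccl25 (0.45 ± 0.10), Cxcl16 (0.33 ± 0.07) and Cxcl17 (0.84 ± 0.27). Ppbp was thus higher and Cxcl1 and Cxcl2 lower in KO cells. Mif lost the call without WT_vehicle 2 or 3 or KO_vehicle 2 or 5 (adjusted p = 0.0533, 0.0561, 0.0869 and 0.0812).

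Receptors for these ligands were mostly outside the table. Of 23 other chemokine receptors 1 was tested, Cd74, a receptor for MIF, which rose in WT cells from 1.18 ± 0.457 to 1.94 ± 0.346 scaled units (0.57 ± 0.17, limma adjusted p = 0.00663). Cxcr2, Cxcr4, Ackr4 and the ACKR3 ligand Cxcl12 are not analysed here. Of 12 tested arrestins, receptor kinases and other partners of ACKR3, 5 rose and 2 fell in WT cells with agonist (median 0.13), a share close to the 57.2% of all rows called. With library sums set equal 4 rose and 3 fell. Adm, which encodes adrenomedullin, a peptide that ACKR3 also clears, rose from 12.5 ± 2.47 to 195 ± 26.3 scaled units (3.92 ± 0.16, adjusted p = 8.11e-17) while Ackr3 dropped. Adm2, a related peptide, rose by 0.81 ± 0.08, Ramp3, a partner of adrenomedullin receptors, by 1.26 ± 0.26 and the connexin gene Gja1 by 0.93 ± 0.26. The receptor kinase gene Grk2 was called at 0.21 ± 0.05 but was at −0.026 with library sums set equal. The 2 that fell were Ramp2 (−0.63 ± 0.17, adjusted p = 0.00325) and the arrestin gene Arrb1 (−0.38 ± 0.11, adjusted p = 0.00502). In KO cells with agonist, where 9.3% of all rows were called, 1 of the 12, Adm2, fell (−0.36 ± 0.08, adjusted p = 0.0142). Without KO_vehicle 6 and KO_agonist 2 there were 2 higher and 2 lower, beside 10.8% and 11.9% of all rows. Under vehicle 3 were higher and 5 lower in KO cells, beside 23.9% of all rows in each direction. Grk5 was at 0.97 ± 0.08, Ramp1 at −0.71 ± 0.06 and Adm at −0.96 ± 0.16.

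Within the interleukin-1 family, Il1rn, the antagonist that blocks the interleukin-1 receptor, rose with Il1a but over a much smaller range. It went from 3.33 ± 0.516 to 10.5 ± 2.00 scaled units in WT cells (1.51 ± 0.11, limma adjusted p = 1.02e-11). Of 4 tested other ligands and antagonists it was the 1 that rose, and Il36rn fell (−0.79 ± 0.17), beside 28.6% of all rows in each direction. With library sums set equal 1 of the 4 rose and 2 fell, beside 12.4% and 60.1% of all rows. In KO cells Il1rn was already at 10.2 ± 1.04 under vehicle (1.49 ± 0.11 against WT, adjusted p = 4.09e-11) and at 10.9 ± 1.37 with agonist (0.09 ± 0.11, adjusted p = 0.626). Il33, an alarm signal of the same family, was at 2.21 ± 0.713 scaled units in KO cells under vehicle and at 0.617 ± 0.238 in WT cells (1.27 ± 0.17). Its WT vehicle mean was under the filter minimum of 1, and the KO level counted towards passing the filter. That difference is therefore given with no test. With agonist 0 of the 4 passed in KO cells, beside 9.3% of all rows. Without KO_vehicle 6 and KO_agonist 2, 1 fell, beside 11.9% of all rows.

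Of 5 tested receptors of the family Il1rl1, the receptor of IL-33, rose in WT cells from 0.766 ± 0.173 to 6.68 ± 1.26 scaled units (2.50 ± 0.13). Its rise is given with no test, since it passed the filter only through the agonist-treated WT libraries. Il1r1, the receptor of interleukin-1 alpha, fell from 60.5 ± 4.12 to 48.6 ± 3.58 (−0.31 ± 0.06, limma adjusted p = 3.53e-05). Its partner Il1rap did not pass (0.12 ± 0.08, adjusted p = 0.178). With library sums set equal 1 of the 5 rose and 3 fell, beside 12.4% and 60.1% of all rows. Of 14 signalling genes downstream 8 rose and 3 fell (median 0.16), beside 28.6% of all rows in each direction. With library sums set equal 3 of the 14 rose and 6 fell (median −0.074). Irak2 was at 0.75 ± 0.06, Map3k7, the kinase TAK1, at 0.55 ± 0.04 and Irak4 at −0.39 ± 0.06. Of 6 genes of processing and release 3 rose and 2 fell (2 and 3 with library sums set equal), led by the inflammatory caspase gene Casp4 (1.93 ± 0.16, adjusted p = 1.28e-10). In KO cells with agonist 0 of 4 receptors and 0 of 14 signalling genes passed (3 signalling genes rose without KO_vehicle 6 and KO_agonist 2), and 1 of 6 processing genes, the calpain gene Capn2, rose (0.20 ± 0.05, adjusted p = 0.0142). Of all rows 9.3% passed in KO cells with agonist, and 10.8% rose without KO_vehicle 6 and KO_agonist 2.

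Beside Csf1, another colony-stimulating factor gene rose. Csf3, which encodes the neutrophil growth factor G-CSF, went from 5.74 ± 0.642 to 40.0 ± 6.52 scaled units in WT cells (2.69 ± 0.10, limma adjusted p = 8.69e-18), a larger fold change than that of Csf1 at a lower level per length. In KO cells it was at 6.21 ± 0.753 under vehicle and 6.53 ± 0.469 with agonist. Of 8 other genes of this axis that were tested 4 rose and 1 fell, beside 28.6% of all rows in each direction. With library sums set equal 3 rose and 3 fell, beside 12.4% and 60.1% of all rows. Among those that rose were Rhbdf2, which helps the sheddase ADAM17 to mature (0.95 ± 0.08), and Rhbdf1 (0.51 ± 0.11). The 1 that fell was Csf1r (34.3 ± 4.58 to 29.5 ± 4.24 scaled units; −0.21 ± 0.09, adjusted p = 0.0499), at the edge of the threshold. It was not called on leaving out any of 7 of the 12 libraries, with an adjusted p of up to 0.144. With agonist in KO cells, where 9.3% of all rows were called, 1 of the 8, the sheddase gene Adam17, rose (0.15 ± 0.05, adjusted p = 0.0462). That call was lost on leaving out any of 9 of the 12 libraries (adjusted p up to 0.115) and without KO_vehicle 6 and KO_agonist 2 (adjusted p = 0.0526). Csf1r was lower in KO cells under vehicle (25.8 ± 1.85; −0.39 ± 0.09, adjusted p = 0.000982).

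**Figure D4:**
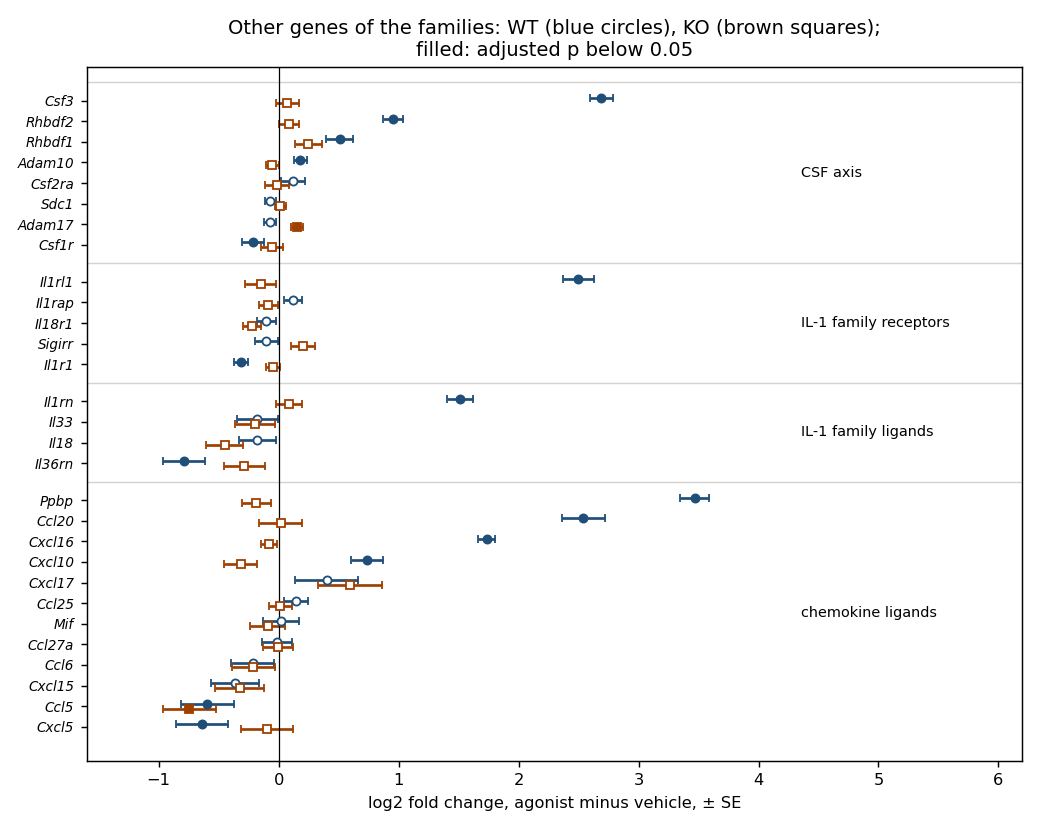
Log2 fold change with agonist and its SE in WT cells (blue circles) and KO cells (brown squares) for the other measured chemokine ligands, interleukin-1 family ligands and receptors, and colony-stimulating factor genes, filled where the adjusted p was below 0.05. Ppbp, Ccl20, Csf3 and Il1rl1 stand between 2.50 and 3.47 in WT cells and near 0 in KO cells. Ccl20 and Il1rl1 passed the filter only through the agonist-treated WT libraries, so their filled circles are not read as a test.

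Genes that act on the transcription and decay of these transcripts moved in WT cells too. Of 13 NF-kB subunits and inhibitors 11 rose and 2 fell (median 1.25, all rows −0.01), beside 28.6% of all rows in each direction. With library sums set equal 11 rose and 2 fell as well (median 1.02), beside 12.4% and 60.1% of all rows. The feedback inhibitor Tnfaip3 was at 4.99 ± 0.10, Nfkbid at 2.76 ± 0.12 and Nfkbia at 1.49 ± 0.07. The subunit genes Rela and Rel were at 1.29 ± 0.06 and 1.34 ± 0.08. None of the 13 was called in KO cells with agonist, where 9.3% of all rows were. Without KO_vehicle 6 and KO_agonist 2, 2 were lower, beside 11.9% of all rows. Under vehicle 5 of the 13 were lower in KO cells and 1 higher, with Nfkbie at −0.71 ± 0.08 and Nfkbia at −0.55 ± 0.07. Of all rows 47.8% were called in that contrast, 23.9% in each direction, so the number of calls is close to the common share. Of 12 genes for proteins that bind AU-rich elements or degrade cytokine transcripts 9 rose and 0 fell (median 0.45), or 8 and 2 with library sums set equal. Zc3h12a rose by 2.46 ± 0.09 and Arid5a, which protects cytokine transcripts, by 2.74 ± 0.11, while Zfp36 is not analysed here. In KO cells with agonist 1 of the 12, Khsrp, rose (0.24 ± 0.05, limma adjusted p = 0.0104). It kept its call without KO_vehicle 6 and KO_agonist 2 (adjusted p = 0.00355), where 2 others were lower.

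Of 10 other tested cytokines that injured tubules are known to make, 9 rose and 0 fell in WT cells (median 1.63), or 8 and 1 with library sums set equal. Of all rows 28.6% were called in each direction, or 12.4% higher and 60.1% lower with library sums set equal. Among the 9, Tnf, Il23a and Il17c had passed the filter only through the agonist-treated WT libraries, so their rise was a condition of being tested. Lif, of the interleukin-6 family, rose by 5.50 ± 0.12 and Tnf by 3.97 ± 0.14, from 0.321 ± 0.105 to 12.4 ± 2.01 scaled units. Il17c rose by 2.84 ± 0.20, Il24 by 2.46 ± 0.36 and Il23a by 1.76 ± 0.12. Among the 7 left for KO cells 0 rose with agonist and Vegfa fell (−0.30 ± 0.06, limma adjusted p = 0.00981), beside 4.66% of all rows called higher and 4.64% lower. Tnf had 3 reads over the 6 KO vehicle libraries and 5 over the 6 with agonist.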

How the data were processed

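Poly(A) RNA was sequenced in 24 libraries of mouse mpkCCD cells. The authors deposited 1 table that gives a signal for every gene in each library, beside the length of the gene. GRCm39, DESeq, DESeq2 and STAR 2.7.8a are named in the submitters' processing notes, with no roles given. Signal times length was a multiple of 0.1, and a factor per library (0.754 to 1.46) turned at least 99.99% of values into whole reads. The signal was therefore taken as reads over a library factor and gene length. Whether counting used strand is not given in the sources used here.

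Groups and replicate numbers came from the sample titles. The signal was multiplied by 92.1, and 11557 rows whose mean reached 1 were kept. limma 3.58.1 (R 4.3.3) was fitted to log2(scaled units + 0.5) of all 24 libraries with a term per group, trend and robust moderation, and 20 residual degrees of freedom. Tests are two-sided, p-values are Benjamini-Hochberg adjusted over all rows kept, and the threshold is 0.05. They measure the spread between these samples, which may be technical. Co-variation p-values come from 100000 permutations of libraries within groups, so they can be no smaller than about 1 in that number.

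The members and lists were chosen with earlier results of these data known. The members were named, with 13 further genes of their pathways where the table had them. Further names were drawn from up to 6 called genes per list and contrast by smallest adjusted p, the 5 genes most like each member (3 with group means removed) and up to 2 neighbours a side. Arrb1 lies outside this rule and was singled out after its values were seen. Settings varied were the pseudocount, the filter, the scaling, the groups in the fit, a replicate block, voom, and leaving out libraries. A gene among those most like a member and a neighbouring gene are not reported here.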

Additional observations from a re-analysis of the deposited data

Results flagged for a closer look

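Ackr3 in KO_vehicle 6, at 61.4 scaled units, lay far above the other 5 libraries of its group (39.2 to 46.9). It was the 1 group of 20 (5 genes in 4 groups) with such a library, and chance flags about 1 in 20. This library also stood apart from its group over all genes, and Ackr3 remained higher in KO than in WT cells under vehicle without it.

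Csf1 moved in opposite directions with agonist in the 2 cell populations, by 1.79 ± 0.11 in WT cells and by −0.49 ± 0.11 in KO cells on the log2 scale. Every WT library with agonist lay above every WT library under vehicle, while in KO cells 5 of 6 agonist libraries lay below all 6 vehicle libraries. The difference of the 2 effects was 2.28 ± 0.15. Since Csf1 was chosen for its WT effect, this difference is a description.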

How the results depend on the processing

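The calls on the members in KO cells with agonist and in KO against WT cells under vehicle held in every setting run, for Cxcl1, Cxcl2, Csf1 and Ackr3. Il1a, which reached the filter minimum in WT cells with agonist alone, was at 0.48 against WT cells under vehicle with quantile normalization and is read as no call. Its effect in KO cells, near 0, was −0.043 with quantile normalization and −0.043 with voom (−0.050 to 0.079 when leaving out single libraries), and the cause was not tested. In WT cells the Il1a effect was 6.45 with a pseudocount of 0.1, 3.44 with a pseudocount of 2, 5.31 with quantile normalization and 7.01 with voom, that of Cxcl2 was 5.63 with a pseudocount of 2, and that of Csf1 was 1.55 with library sums set equal. The number of rows called in KO cells with agonist was 1075, 284 to 1851 when leaving out single libraries (284 without KO_agonist 1, 1851 without KO_agonist 2, 589, 429, 481 and 441 without KO_agonist 3 to 6, 663 and 610 without KO_vehicle 3 and 5) and 2623 without KO_vehicle 6 and KO_agonist 2. The interaction was called for 4746 rows and for 7545 with library sums set equal. The 48 counts of calls in the gene and marker lists were each compared with their value in every other setting, leaving out single libraries aside. Of these comparisons 45 moved by over 1.5 times and 419 did not.

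Among other genes, the WT effects of Adam10, Grk2 and Il1rap were −0.059, −0.026 and −0.11 with library sums set equal, and that of Capns1 was −0.054 with quantile normalization. The KO effects of Csf1r and Il1rap were 0.0066 and 0.0011 without KO_vehicle 6 and KO_agonist 2, and that of Gpr39 was −0.0011 with quantile normalization. Leaving out single libraries gave −0.033 to 0.038 for Gpr39, −0.071 to 0.00059 for Il1r1 and −0.11 to 0.0036 for Il1rap in KO cells.

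The replicate numbers did not pair the samples (correlations of same-numbered libraries −0.315 to 0.488). With a replicate block 6593 rows were called for the agonist in WT cells and 1122 in KO cells, 5513 for KO against WT cells under vehicle, and Csf1 in KO cells kept −0.49 (limma adjusted p = 0.00855). edgeR and DESeq2 were planned on recovered reads and not run, since the values are divided by gene length; voom on those reads was added after seeing the data. Counts of 1 to 11 reads limit Il1a outside WT cells with agonist.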
